A study of Mus musculus with 8 samples.

Results

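The nuclear genes of oxidative phosphorylation were followed on expression arrays of hematopoietic stem cells (HSCs) from mouse bone marrow. Members were taken by the gene name printed in the scanner files, for every non-control probe named Ndufa, b, c, s or v, Sdha to Sdhd, Uqcr, Cox4 to Cox8 or Atp5. The rule found 116 probes for 83 gene names, of 41174 probes for 27600 names on the array. Of the 83 names, 78 are subunits: 35 of complex I, 4 of complex II, 7 of complex III, 17 of complex IV and 15 of complex V. The other 5 only share the prefix. Ndufaf1 and Ndufa12l (now Ndufaf2) are complex I assembly factors, Cox7a2l helps join complexes into larger assemblies, Atp5s (now Dmac2l) is an assembly-related factor and Cox4nb (now Emc8) belongs to a complex of the endoplasmic reticulum.

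Total RNA of HSCs from mice of strain B6 was hybridised in 1 colour (Cy3), with 1 sample on each of 8 Agilent arrays. Controls were Nras+/+ (n = 2). One mutant genotype, NrasG12D/+, carried 1 mutant allele at the endogenous gene (n = 3), and in the other, NrasG12D/G12D, both alleles were mutant (n = 3). Nras is a small GTPase, and the G12D form stays active. The age of the mice, how the cells were sorted and whether each sample came from its own animal are not given in the labels, so p-values measure the spread between these samples, which may be technical.

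Oxidative phosphorylation takes place at the inner mitochondrial membrane. Complexes I and II pass electrons from NADH and succinate to ubiquinone, complex III passes them to cytochrome c, complex IV passes them to oxygen, and complex V uses the resulting proton gradient to make ATP. Each complex except complex II also holds subunits encoded in mitochondrial DNA. Quiescent HSCs are known for relying little on respiration and a good deal on glycolysis, and for a rise in mitochondrial activity when they leave quiescence.

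Levels are log2 processed signals relative to each array, where 0 is the 75th percentile of the probes that were detected everywhere. Detected means that the scanner software marked the probe as well above background. On the 8 arrays 25.7% to 42% of all probes were detected, so most transcripts lay near the limit of measurement. Of the labelled cell type's markers, Ly6a and Slamf1 were detected on 8 arrays and Meis1 on 7, while Cd34 was detected on 3, Kit and Hlf on 1, and Procr and Gata2 on 0. Genes listed as markers of other cells were also detected, with 4 to 6 of 8 B cell, 3 to 7 of 10 erythroid and 2 to 5 of 9 neutrophil genes on an array. Further lists had 2 to 6 of 7 monocyte and macrophage, 2 to 5 of 8 T and NK cell and 3 of 6 megakaryocyte genes. For stroma and endothelium it was 0 to 3 of 6. Of all genes, 22% were detected on all 8 arrays and 34% on 0, so these counts do not establish that such cells were present. The part of such cells in the results was not tested. On its 1 tested probe of 3, Nras itself had log2 differences of -0.87 and -1.79 (SE 0.70) from Nras+/+ in NrasG12D/+ and NrasG12D/G12D, and an expression level does not check a point mutation. In bulk RNA, fewer cells of a type and less RNA per cell cannot be told apart.

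Detection of the oxidative phosphorylation probes was uneven between the arrays. In Nras+/+ 44 (37.9%) and 40 (34.5%) of the 116 probes were detected. In NrasG12D/+ the counts were 62 (53.4%), 57 (49.1%) and 37 (31.9%), and in NrasG12D/G12D they were 31 (26.7%), 32 (27.6%) and 43 (37.1%). The first pair of NrasG12D/+ arrays stood highest and the third lay within the range of the other genotypes, so the groups overlapped. All probes followed the same order in part, with 40.6% and 42% detected on that first pair and 28.3% on the third. These 2 arrays shared a slide with both Nras+/+ arrays, and NrasG12D/+ replicate 3 shared the second slide with all NrasG12D/G12D arrays. The mean over arrays was 37.3% for the members and 32.8% for all probes, sets that differ in base composition as given below.

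**Figure D1:**
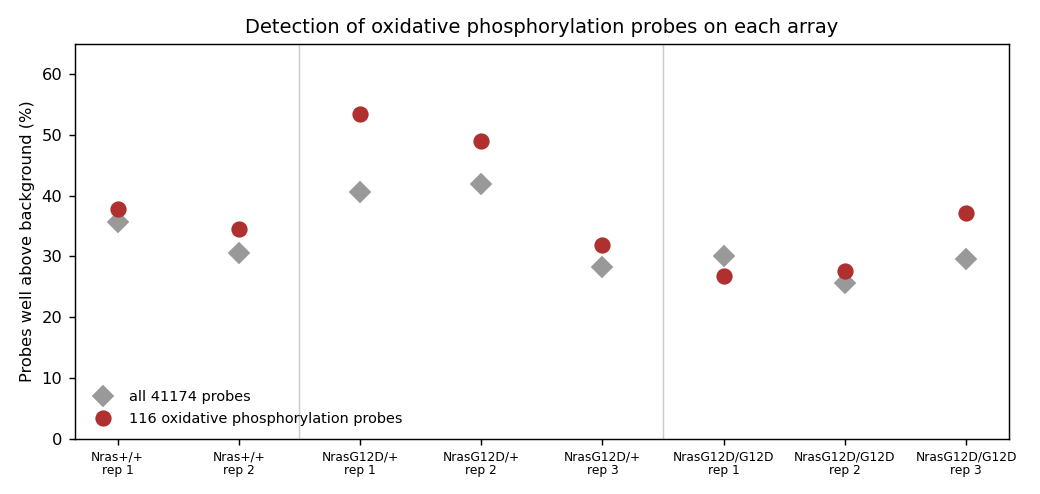
Percentage of probes well above background (vertical axis) on each of the 8 arrays (horizontal axis), for the 116 oxidative phosphorylation probes (circles) and all 41174 probes (diamonds). The members were detected more often than all probes on 7 arrays and less often on NrasG12D/G12D replicate 1, and their highest shares were 53.4% and 49.1% on NrasG12D/+ replicates 1 and 2.

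By gene, taking the probe detected on most arrays, 16 of the 83 names (19.3%) were detected on all 8 arrays, 40 (48.2%) on 2 to 7, 10 on 1 and 17 (20.5%) on 0. For all genes the shares were 22% on all 8 arrays and 34% on 0. Complex I had 6 subunits detected everywhere, among them the accessory subunits Ndufa5, Ndufa7, Ndufa12, Ndufb7 and Ndufb8. In complex II this was Sdhd, a membrane anchor. In complex III they were Uqcrb and the core protein Uqcrc2, in complex IV Cox5b, Cox6b2, Cox6c and Cox7a1, and in complex V Atp5k and Atp5b, the catalytic beta subunit of the ATP synthase.

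Several core or structural subunits were below background on every array. These were Ndufs1 and Ndufv2, which carry iron-sulphur clusters of complex I, Uqcrfs1, the Rieske iron-sulphur protein of complex III, Cox5a of complex IV and Atp5c1, the central stalk of complex V. Ndufv1, which binds NADH, and Sdhb, the iron-sulphur subunit of complex II, were detected on 1 array. A probe below background gives no level, and nothing about the presence of the protein follows from it.

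The isoforms of complex IV gave a related picture. Some of its subunits exist in a widely expressed form and in a form known mainly from heart and skeletal muscle, lung or testis. Of the widely expressed forms Cox8a was detected on 7 arrays, Cox4i1 on 4, Cox6b1, Cox7a2 and Cox7b on 1, and Cox6a1 and Ndufa4 on 0. Of the restricted forms Cox7a1 and Cox6b2 were detected on 8 arrays, Cox6a2 on 7, Cox4i2 on 5, Cox8b on 2 and Cox8c on 0. Different probes bind their targets with different strength, so these counts do not compare the amounts of the isoforms. The probe of Cox7a1, the muscle form of subunit 7a, is shown because it is a restricted form that was detected on all 8 arrays. It holds 55% G and C and lies on the plus strand at chr7:29894078-29894689 in coordinates that the files give without naming a genome build. It covers 612 genomic bases for 60 bases of probe, so it crosses at least 1 exon junction.
Cox7a1: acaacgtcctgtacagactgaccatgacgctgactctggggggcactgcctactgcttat
The levels of Cox7a1 were 1.09 and 0.21 in Nras+/+, -1.20, -0.95 and 0.07 in NrasG12D/+, and -0.81, -1.33 and 0.39 in NrasG12D/G12D. All NrasG12D/+ arrays lay below both Nras+/+ arrays, with a log2 difference of -1.35 (SE 0.82, limma adjusted p = 0.816).

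Base composition of the probe went along with detection. Among all probes, the share detected on at least 2 arrays was 12.5% where under 35% of the bases were G or C and 86.2% where at least 50% were. In the classes between, from low to high, it was 23.1%, 44% and 62.9%. The oxidative phosphorylation probes followed the same gradient, and they held a median of 44.2% G and C, against 40% for all probes. None of the 6 members under 35% G and C was detected on 2 arrays, against 8 of 31 (25.8%) from 35% to 40%, 12 of 21 (57.1%) from 40% to 45%, 19 of 28 (67.9%) from 45% to 50% and 26 of 30 (86.7%) from 50% upwards. The probes of Ndufv2 and Uqcrfs1 each held 35% and those of Cox7b and Ndufa4 each 36.7%, whereas Cox6a2 and Cox6b2, like Cox7a1, held 55%. Composition alone did not sort them: Ndufv1, at 55%, was detected on 1 array and Cox6a1, at 51.7%, on 0. What the gradient stems from was not tested.

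**Figure D2:**
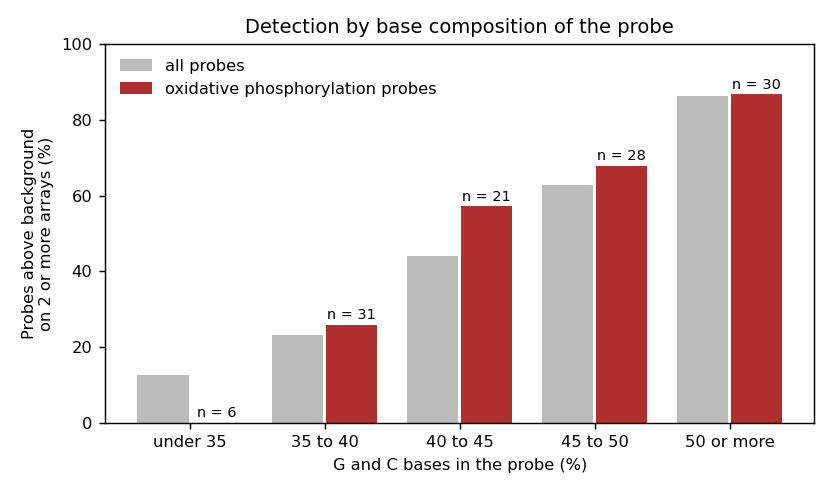
Percentage of probes detected on 2 or more arrays (vertical axis, from 0) by the percentage of G and C bases in the probe (horizontal axis), for all probes (grey) and the oxidative phosphorylation probes (red, with their number). Both sets of bars climb from left to right, to 86.2% and 86.7% in the class with the most G and C.

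Probes that overlap in sequence gave a check on how far a level can be read from a single probe. The genes Ndufs6, a zinc-binding accessory subunit of complex I, and Ndufa12, another accessory subunit, each have probes that share most of their bases. They are printed with the shared bases in capitals. The Ndufs6 pair shares 54 bases and lies on the minus strand at chr13:73786350-73786409 and chr13:73786344-73786403. The Ndufa12 pair shares 40 bases and lies on the plus strand at chr10:93629794-93633108 and chr10:93629774-93633088, across an intron.
Ndufs6 probe A_51_P375034: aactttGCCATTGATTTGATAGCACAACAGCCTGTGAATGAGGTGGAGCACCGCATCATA
Ndufs6 probe A_52_P685828: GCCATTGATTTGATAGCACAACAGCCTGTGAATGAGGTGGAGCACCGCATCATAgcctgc
Ndufa12 probe A_51_P458538: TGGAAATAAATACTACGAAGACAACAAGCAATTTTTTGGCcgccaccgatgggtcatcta
Ndufa12 probe A_51_P458540: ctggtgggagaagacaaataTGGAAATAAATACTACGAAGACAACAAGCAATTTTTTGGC
The Ndufs6 pair differed by a median of 0.28 on the log2 scale per array and by at most 1.42. Its log2 differences between genotypes were -1.01 and -1.34 for NrasG12D/+ against Nras+/+ and -1.27 and -1.06 for NrasG12D/G12D against Nras+/+. Another Ndufs6 probe, which shares 39 and 33 bases with these and was detected on 3 arrays, gave 0.00 and 0.30 for the same comparisons. The Ndufa12 pair differed by a median of 1.80 and by at most 3.58. Its differences for NrasG12D/G12D against Nras+/+ were -1.21 and -1.62, and for NrasG12D/+ against Nras+/+ -0.08 and -1.15. Ndufa11, a membrane-arm subunit whose probes share 50 bases, gave 1.67 with one probe and -0.11 with the other for NrasG12D/+ against Nras+/+.

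No member passed the threshold (limma, Benjamini-Hochberg adjusted p under 0.05 over all genes tested) in any comparison of genotypes, and neither did any other of the 14966 genes tested, a background of 0%. Genes were tested where a probe was detected on at least 2 arrays, which 56 of the 83 members were, 52 of them subunits. The filter let in genes that were high in 1 group only, so the 56 do not stand for all members. The prior SD of the fit was 1.05 on the log2 scale, and the median SE of a member's change was 1.0 against Nras+/+ and 0.89 between the mutant genotypes. All 3 comparisons share arrays, so their values are set side by side and are not counted as separate evidence.

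In NrasG12D/+ against Nras+/+, the mean was higher for 33 of the 56 members (58.9%, all genes 42%) and lower for 23 (41.1%, all genes 58%). With another background correction (normexp) the split turned to 18 higher and 38 lower (all genes 76.5% lower). Here and below, normexp adds an offset of 50 to every signal, where array medians of the processed signal were 3.09 to 6.75. This offset draws log2 differences of dim probes towards 0, so what the background correction itself changed was not tested. Under the main processing, members had a median log2 change of 0.29 and all genes one of -0.25, a distance of 0.54. Without Nras+/+ replicate 1 that distance was 0.15, without NrasG12D/+ replicate 1 it was 0.32, and within slide 1 it was 0.73. Complex III lay highest, with 5 of 6 subunits higher and a median of 0.83 above that of all genes. Complex I had 15 of 23 higher (0.53) and complex IV 5 of 9 (0.68), while complex V had 5 of 11 (-0.01) and complex II 1 of 3 (-0.32). At an unadjusted p under 0.05 there were 2 members higher and 1 lower, 3.57% and 1.79% of the members against 2.35% and 2.42% of all genes. Groups did not overlap for 5 members in the higher direction (8.93%, all genes 8.96%) and 9 in the lower (16.1%, all genes 16%), so the members were no more often separated than genes in general. Among the 15 subunits detected on all arrays 8 were higher and 7 lower, with a median change of 0.09, where all 5849 genes detected on all arrays had -0.36.

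Ndufa2, a small accessory subunit of complex I, had the lowest p in this comparison. It stood at -5.98 and -4.52 in Nras+/+, at -3.26, -1.84 and -2.46 in NrasG12D/+ and at -4.96, -3.43 and -3.87 in NrasG12D/G12D. The NrasG12D/+ arrays were all above the others, and neither Nras+/+ array was above background. The difference from Nras+/+ was 2.73 on the log2 scale (SE 0.84, limma unadjusted p = 0.0103, adjusted p = 0.816), or at least 3.02-fold higher with the control set at its detection limit. With normexp it was 0.23.

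Uqcrc1, a core protein of complex III, measured -3.91 and -3.45 in Nras+/+ and 2.19, -2.19 and -1.61 in NrasG12D/+. Replicate 1 stood far above its group, though all 3 arrays were above both controls. The log2 difference was 3.14 (SE 1.40, limma adjusted p = 0.816), 1.78 without that array and 1.62 with normexp. In NrasG12D/G12D it measured -5.01, -1.93 and -4.12, which overlapped with both other groups. A second Uqcrc1 probe, detected on 2 NrasG12D/+ arrays and no others, gave a smaller difference of 1.38 between NrasG12D/+ and Nras+/+. Between NrasG12D/G12D and NrasG12D/+ it gave -1.18, where the tested probe gave -3.15.

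Atp5k, subunit e of the membrane part of complex V, was detected on every array. It measured 2.0 and 0.68 in Nras+/+, 6.67, 1.97 and 3.58 in NrasG12D/+ and 3.37, 0.70 and 1.77 in NrasG12D/G12D. The difference of 2.73 between NrasG12D/+ and Nras+/+ (SE 1.38, limma adjusted p = 0.816) dropped to 1.43 without NrasG12D/+ replicate 1. Ndufa1 and Ndufa13, both needed to assemble complex I, were at least 5.80-fold and at least 4.80-fold higher by their group means. Their log2 differences were 3.92 and 3.38 (SE 1.84 and 1.60, limma adjusted p = 0.816 for both). In each case 1 NrasG12D/+ array lay within the Nras+/+ range. Ndufa1 passed the filter only through 2 NrasG12D/+ arrays, and its other probe was detected on 0 arrays. Ndufa13 was detected on 0 Nras+/+, 2 NrasG12D/+ and 1 NrasG12D/G12D arrays.

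Sdhd, a membrane anchor of complex II detected on all arrays, measured -1.81 and -1.32 in Nras+/+, -3.21, -2.86 and -1.83 in NrasG12D/+ and -3.35, -3.01 and -2.81 in NrasG12D/G12D. Both controls were the highest arrays, and the log2 differences were -1.07 for NrasG12D/+ and -1.49 for NrasG12D/G12D (SE 0.72, limma adjusted p = 0.816 and 0.722), the latter -2.69 with a fixed slide block and -0.70 with normexp. Outside the subunits, Ndufaf1 was at least 1.04-fold higher and Atp5s at least 1.38-fold lower (log2 differences 2.14 and -2.20). Each was detected on 2 arrays, and Ndufaf1 passed the filter only through NrasG12D/+. With normexp the log2 differences were -0.22 and -0.62, so that of Ndufaf1 did not keep its direction. Cox7a2l had a log2 difference of -1.85 (limma adjusted p = 0.816 for each of the 3), which was -0.88 without NrasG12D/+ replicate 1 and -2.83 without replicate 3. Cox7a2l rests on 2 of the 3 arrays in each mutant group, since outlier spots were dropped.

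In NrasG12D/G12D against Nras+/+, the mean was higher for 20 members (35.7%, all genes 35.6%) and lower for 36 (64.3%, all genes 64.4%). The split moved with the scaling, for members and all genes alike. Scaled to the array median, or in the deposited value table, 35 members were higher and 21 lower (all genes 42.6% and 42.9% lower), and scaling to the median moved the median change of all genes from -0.44 to 0.20. With quantile normalization, or the percentile taken over all probes, 31 were higher and 25 lower (all genes 54.3% and 48.3% lower), and with normexp 14 and 42 (all genes 75.1% lower). The median change was -0.29 for the members and -0.44 for all genes, a distance of 0.16, which ranged from 0.02 to 0.34 with 1 array left out. All 3 complex II genes were lower (0.41 below all genes), complex I had 14 of 23 lower (0.21 below), and complexes III, IV and V lay 0.59, 0.13 and 0.24 above. At an unadjusted p under 0.05 there was 1 member higher and 1 lower (each 1.79%, against 1.32% and 5.22% of all genes). Groups did not overlap for 4 members in the higher direction (7.14%, all genes 6.04%) and 12 in the lower (21.4%, all genes 22.8%). The slides held 1 of these groups each, so slide and genotype cannot be told apart here; with the slide as a block, which rests on NrasG12D/+ as a link, the distance was 0.74.

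Ndufb4, an accessory subunit of the complex I membrane arm, showed the largest difference of any member. Its probe, shown because this is the member with the lowest p in both comparisons of NrasG12D/G12D, lies on the minus strand at chr16:37566948-37568301. It covers 1354 genomic bases with 60, so it crosses an intron.
Ndufb4: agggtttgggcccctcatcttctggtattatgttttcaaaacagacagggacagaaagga
Ndufb4 measured -4.84 and -6.08 in Nras+/+, -3.10, -4.16 and -3.79 in NrasG12D/+ and 0.32, 0.35 and -2.05 in NrasG12D/G12D. The groups lay apart from each other, with Nras+/+ lowest, NrasG12D/+ between and NrasG12D/G12D highest. It was above background on 0 Nras+/+ arrays, 2 NrasG12D/+ arrays and all 3 NrasG12D/G12D arrays. The log2 difference between NrasG12D/G12D and Nras+/+ was 5.0 (SE 0.94), at least 12.6-fold with the control at its detection limit. The limma p was 0.000508 unadjusted and 0.501 after adjustment over all genes, so the difference did not pass. Between NrasG12D/G12D and NrasG12D/+ it was 3.22 (SE 0.84, limma adjusted p = 0.803), and 3.33 within slide 2, where NrasG12D/+ replicate 3 is the only array of its group. Between NrasG12D/+ and Nras+/+ it was 1.78 (SE 0.94, limma adjusted p = 0.816). With normexp background correction the 3 differences were 1.58, 1.69 and -0.11, so the step from Nras+/+ to NrasG12D/+ did not keep its direction. RefSeq (GRCm38.p6) lists 2 further genes of this family, Ndufb4b on chromosome 19 and Ndufb4c on chromosome 15; whether the probe also binds their transcripts was not tested.

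**Figure D3:**
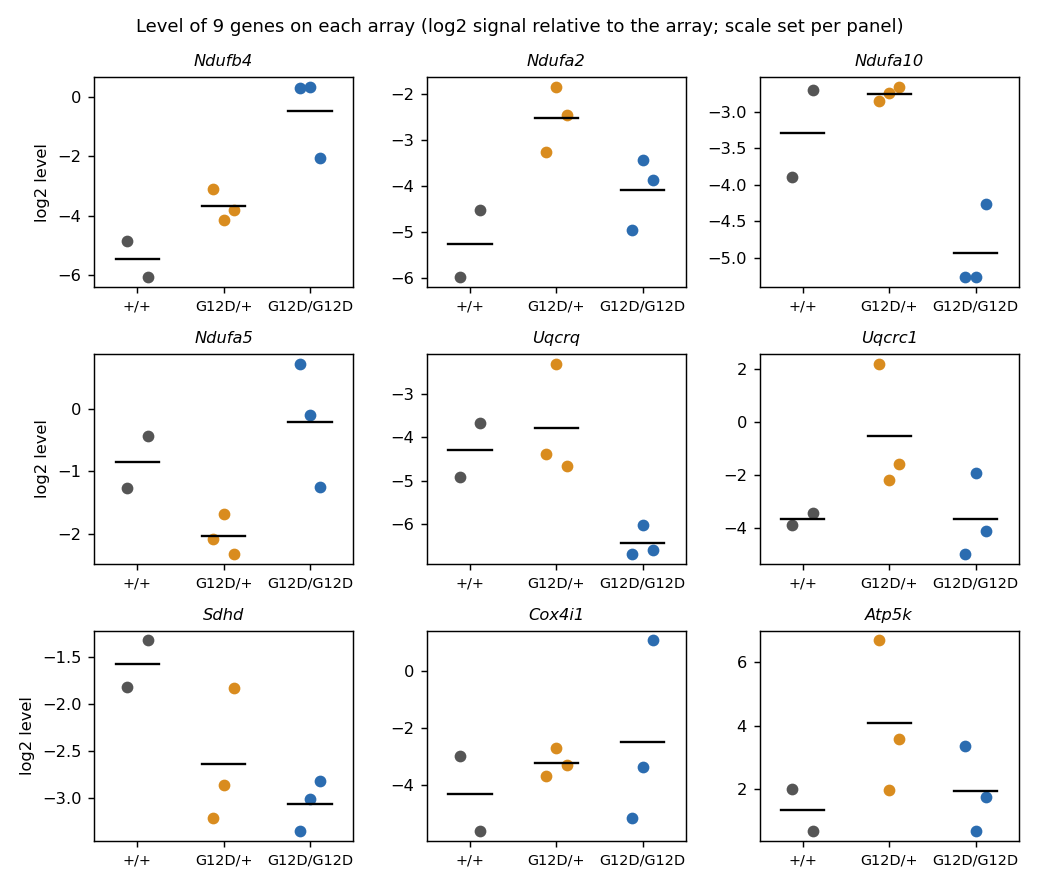
Level of 9 member genes (log2 signal relative to the array, vertical axis, scaled per panel) on each array, by genotype (horizontal axis), with a black line at the group mean. Ndufb4 lay between -6.08 and 0.35 with groups that do not overlap, Ndufa10 and Uqcrq were lowest in NrasG12D/G12D, and Uqcrc1, Atp5k and Cox4i1 each have a single array far above the rest.

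Ndufa10, an accessory subunit of complex I, went the other way. Its probe is printed as the member with the lowest p among those lower in NrasG12D/G12D than in NrasG12D/+. It lies on the minus strand at chr1:94294868-94297825, over 2958 genomic bases, and so crosses at least 1 intron.
Ndufa10: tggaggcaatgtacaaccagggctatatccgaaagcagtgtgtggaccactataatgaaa
Ndufa10 measured -3.90 and -2.70 in Nras+/+, -2.86, -2.75 and -2.66 in NrasG12D/+ and -5.27, -5.27 and -4.26 in NrasG12D/G12D. It was above background on all 5 arrays of the first groups and on 0 of the 3 NrasG12D/G12D arrays. NrasG12D/G12D was at least 2.72-fold lower than NrasG12D/+ (log2 difference -2.18, SE 0.65, limma unadjusted p = 0.00883, adjusted p = 0.803) and at least 1.87-fold lower than Nras+/+ (-1.64, SE 0.73, limma adjusted p = 0.722). With normexp and its offset of 50 these log2 differences were -0.31 and -0.42, smaller than the bounds, which are taken on signals without that offset. Ndufb5, another complex I accessory subunit, had the same pattern of detection, with 5 of 5 arrays in the first groups and 0 of 3 in NrasG12D/G12D. It was at least 2.71-fold lower than in Nras+/+ and at least 2.28-fold lower than in NrasG12D/+ (limma adjusted p = 0.722 and 0.803).

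Uqcrq, a small subunit of complex III, measured -4.92 and -3.66 in Nras+/+, -4.39, -2.30 and -4.66 in NrasG12D/+ and -6.69, -6.02 and -6.59 in NrasG12D/G12D. All NrasG12D/G12D arrays were below the others and below background. The gene was at least 1.34-fold lower than in NrasG12D/+ (log2 difference -2.65, SE 0.81, limma adjusted p = 0.803). Against Nras+/+ the log2 difference was -2.14 (SE 0.90, limma adjusted p = 0.722), with no bound, because the fold against the detection limit came to under 1. With normexp the differences were -0.31 and -0.42.

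In complex IV, Cox5b, a zinc-binding subunit, was higher in all NrasG12D/G12D arrays than in both controls. It measured -1.04 and -1.18 in Nras+/+, -1.12, 1.05 and -0.34 in NrasG12D/+ and -0.80, -0.01 and 4.34 in NrasG12D/G12D. The log2 difference of 2.29 (SE 1.44, limma adjusted p = 0.728) was 0.71 without NrasG12D/G12D replicate 3. In complex V, Atp5o, the stalk subunit that confers oligomycin sensitivity, was at least 1.07-fold lower in NrasG12D/G12D (log2 difference -1.64, SE 0.91, limma adjusted p = 0.722), with -0.37 under normexp. It was above background on 0 of 3 NrasG12D/G12D arrays, but also on only 1 Nras+/+ array and 1 NrasG12D/+ array. Atp5b, the catalytic beta subunit, measured -1.61 and -1.40 in Nras+/+, -1.97, -2.52 and -1.64 in NrasG12D/+ and -2.35, -1.87 and -0.90 in NrasG12D/G12D. The NrasG12D/+ arrays lay below both controls, and the NrasG12D/G12D arrays overlapped with both other groups.

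In NrasG12D/G12D against NrasG12D/+, the mean was lower for 34 members (60.7%, all genes 57.9%) and higher for 22 (39.3%, all genes 42.1%). This split also turned, to 30 higher and 26 lower when scaled to the array median or in the deposited value table (all genes 40.2% and 40.1% lower) and to 31 and 25 with normexp (all genes 36% lower). It was 28 and 28 with quantile normalization and 26 and 30 with the percentile over all probes (all genes 46.9% and 45.1% lower). The median change was -0.38 for the members and -0.20 for all genes, a distance of -0.18. Within slide 2, where NrasG12D/+ replicate 3 is the only array of its group, the distance was -0.12. Complex I had 17 of 23 subunits lower and a median 0.57 below that of all genes. Complexes II and V lay 0.22 and 0.20 below, complex III at 0 and complex IV 0.32 above. At an unadjusted p under 0.05, 2 members were higher (3.57%, all genes 1.61%) and 6 lower (10.7%, all genes 4.34%). The lower ones include Ndufa1 and Ndufaf1, which passed the filter only through NrasG12D/+, so this share depends in part on the filter. Groups did not overlap for 2 members in the higher direction (3.57%, all genes 2.79%) and 9 in the lower (16.1%, all genes 8.71%). Among the 15 subunits detected on all arrays, which cannot enter through 1 bright group, 8 were higher and 7 lower, with a median change of 0.10. The 5849 genes of any kind detected on all arrays had a median change of 0.04, with 3027 higher and 2822 lower. At an unadjusted limma p under 0.05, 1 of the 15 subunits was higher and 1 lower. Of the 5849 genes, 117 were higher and 132 lower at that p.

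Ndufa5, an accessory subunit of complex I detected on every array, measured -1.26 and -0.43 in Nras+/+, -2.09, -1.68 and -2.33 in NrasG12D/+ and 0.73, -0.09 and -1.25 in NrasG12D/G12D. The NrasG12D/+ arrays were the lowest, and the difference between the mutant groups was 1.83 (SE 0.71, limma adjusted p = 0.803).

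**Figure D4:**
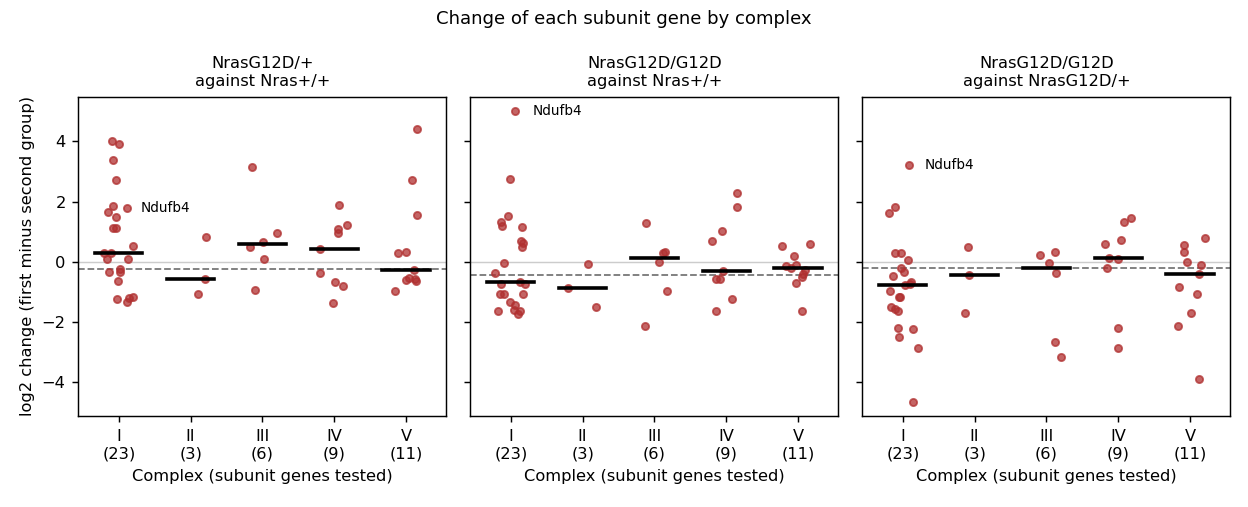
Log2 change of each of the 52 subunit genes tested (points, vertical axis) by complex (horizontal axis, with the number of genes), in each comparison of genotypes. Black lines are medians per complex, the dashed line is the median of all 14966 genes, and the point of Ndufb4 is named. Complex I has its median above the dashed line in NrasG12D/+ against Nras+/+ and below it in NrasG12D/G12D against NrasG12D/+.

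Medians over the members by array did not follow genotype. Relative to all genes they were -0.23 and 0.13 in Nras+/+, 0.13, 0.19 and 0.04 in NrasG12D/+ and -0.30, -0.04 and 0.07 in NrasG12D/G12D. The control arrays lay on both sides of 0, as did the NrasG12D/G12D arrays. The complexes did not move as a unit either. On NrasG12D/+ replicate 1, complexes I and III lay 0.85 and 1.06 above all genes while complexes II and IV lay 0.43 and 0.31 below. On NrasG12D/G12D replicate 3, complex IV stood at 0.83 and complex I at 0.03. Within groups the median SD of a subunit gene was 1.13 and that of all genes 1.06, and for genes detected on all arrays it was 1.08 and 0.92.

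Some members peaked on a single array. For 11 of the 56 members (19.6%) the highest array was at least 3 log2 units (8-fold) above the next, against 7.59% of all genes; this limit was chosen after the values were seen. On NrasG12D/+ replicate 1 there were 5, in 3 complexes: Ndufb7 and Ndufs7 of complex I, Uqcrc1 of complex III, and Atp5a1 and Atp5k of complex V. That is 8.93% of the members and 1.92% of all genes. Cox6a2 and Sdha peaked on NrasG12D/+ replicate 2, and Atp5e on NrasG12D/+ replicate 3. Cox4i2 peaked on NrasG12D/G12D replicate 1, and Cox4i1 and Cox5b on NrasG12D/G12D replicate 3. No member peaked on either Nras+/+ array, where only 0.755% and 0.414% of all genes did, so the members were close to all genes there.

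The widest gap belonged to Atp5a1, the alpha subunit of the ATP synthase. Its tested probe stood at 7.44 on NrasG12D/+ replicate 1 and between -5.42 and -3.54 on the other 7 arrays, a gap of 10.98. A second probe of the gene also peaked there, at 4.23, against -5.70 to -4.48 elsewhere. Ndufs7, a core iron-sulphur subunit of complex I, stood at 5.25 on that array, 6.63 above the next. Sdha, the flavoprotein of complex II, stood at 2.21 on NrasG12D/+ replicate 2, 4.38 above the next, with the other arrays between -4.46 and -2.18. Second probes of Sdha and Uqcrc1 did not show the peaks of the tested probes. That of Sdha read -7.16 on NrasG12D/+ replicate 2 and was detected on 0 arrays, so it gives no level. That of Uqcrc1 read -4.22 on NrasG12D/+ replicate 1 and -4.43 on NrasG12D/+ replicate 2. Cox4i1, the widely expressed form of subunit 4, stood at 1.07 on NrasG12D/G12D replicate 3, and Cox4i2, its restricted form, at 1.23 on NrasG12D/G12D replicate 1. No 2 arrays of a genotype shared such a peak by construction, and what set these values apart was not tested.

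**Figure D5:**
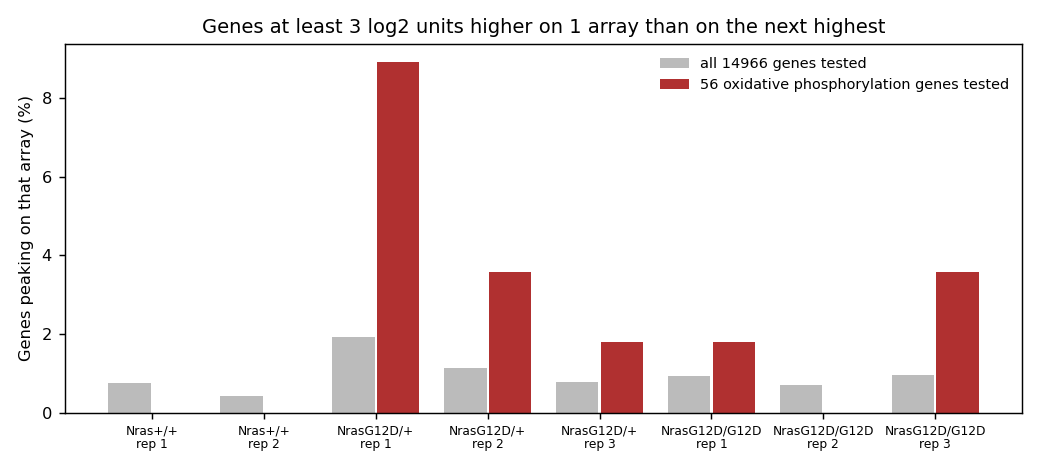
Percentage of genes (vertical axis, from 0) whose level on an array was at least 3 log2 units above that on the next highest array, for each array (horizontal axis), among the 56 oxidative phosphorylation genes tested (red) and all 14966 genes (grey). The tallest bar is 8.93% of the members on NrasG12D/+ replicate 1, where all genes reached 1.92%.

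The promoters of the subunit genes shared letters that the choice of members did not use. Windows of 300 bases around the start were taken from RefSeq (GRCm38.p6), and 64 of the 78 subunit genes had one. The letters GCGCA and GCGC parted by any 1 base, known as the site of nuclear respiratory factor NRF1, was found on either strand in 17 of the 64 genes (26.6%) and in 5.19% of all 27025 genes with a window. The letters CCGGAAG, the core bound by ETS factors such as GABP, were found in 16 (25%) and in 9.93% of all genes. CCAAT, a general promoter element, was found in 26 (40.6%) and in 41.1% of all. The motifs were searched separately, do not contain each other, and a match is a description of the letters in the window.

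Genes of the pathway were also read from lists, whose splits into higher and lower were not recounted under other scalings. Of 28 complex assembly factors tested, 16 were higher and 12 lower in NrasG12D/+ against Nras+/+. The split was 13 and 15 in NrasG12D/G12D against Nras+/+, and 13 and 15 between the mutants. The list includes Ndufaf1 and Ndufaf2 (Ndufa12l), which are also counted among the members. Of all genes, 58%, 64.4% and 57.9% were lower in these comparisons. Cox19, a copper-handling assembly factor of complex IV, had log2 differences of -4.14 and -3.76 from Nras+/+ (SE 0.96, limma adjusted p = 0.816 and 0.715). Sdhaf3, an assembly factor of complex II, was at least 4.77-fold and at least 3.87-fold higher (limma adjusted p = 0.816 and 0.722). Of 8 electron carrier genes, 6 and 7 were lower in NrasG12D/+ and NrasG12D/G12D, among them Cyc1, the cytochrome c1 of complex III, at -0.76 and -1.46 (SE 0.79, limma adjusted p = 0.833 and 0.722).

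Of 14 genes of the tricarboxylic acid cycle and its entry, 9 were lower in NrasG12D/+ and 12 in NrasG12D/G12D, where 58% and 64.4% of all genes were lower. Pdha1, the alpha subunit of pyruvate dehydrogenase, had differences of -3.14 and -1.85 (SE 0.83, limma adjusted p = 0.816 and 0.722), and Cs, citrate synthase, of -2.23 and -2.77 (SE 1.03, same adjusted p-values), the latter at least 5.17-fold. Of 17 regulators of mitochondrial biogenesis and transport, 9 and 12 were lower, and Slc25a5, an ADP/ATP carrier, had the lowest p, with -2.47 between the mutant groups (SE 0.71, limma adjusted p = 0.803). None of these list genes passed the threshold. The array named 3 mitochondrially encoded genes, and ND4L, COX2 and CYTB were detected on 3, 4 and 5 arrays with SEs of 3.41 to 5.53 on the log2 scale, too wide to place them.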

How the data were processed

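Per the file headers, spots were quantified with Agilent Feature Extraction 10.5.1.1. The deposited processed signal is an intensity on a linear scale, background-subtracted and detrended within each array per the file headers. The mean spot signal and local background, also deposited as intensities, served the normexp alternative, which was run with an offset of 50. The deposited flags of 0 or 1 per spot, kept here as scores, mark spots well above background and outliers. The deposited value table holds a ratio, which equals the processed signal over the array's median (largest relative deviation 1.7e-06).

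Outlier spots, 120 to 464 on an array, were treated as missing. No spot was saturated. Log2 processed signals were averaged per probe and reduced by each array's 75th percentile across the 6576 probes that were above background everywhere. Genes were named through RefSeq accessions, symbols or synonyms, and members by the name in the file. A gene was tested on its brightest probe among those above background on at least 2 arrays, using the two-sided moderated test of limma 3.58.1 under R 4.3.3, in which all genotypes share 1 estimate of spread. Adjustment was by Benjamini-Hochberg over all 14966 genes. The fit was tested on simulated data. An "at least" fold is taken where the dimmer group was above background on no array: each of its values is first raised to the lowest signal that counted as above background on that array, unless it was higher already, and the mean of the brighter group is set against the mean of these. The number of arrays limits the precision.

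Named were, per comparison and direction, up to 4 members whose groups do not overlap, in order of p, the member of lowest p in each complex, a set of core subunits and the isoforms of complex IV. Some genes that this rule or a marker list names are not reported here, though counts include them. Other members that are named were chosen after their values were seen. Members and lists were chosen with earlier results of these data known. Lists of markers, assembly factors, carriers and metabolic genes were described by counts. Sequences come from the scanner files and promoter windows from RefSeq. Alternatives were other scalings, background correction, filters, probe rules, weights, slide and replicate blocks, and leaving out each array.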

Additional observations from a re-analysis of the deposited data

How the results depend on the processing

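The count of members past the threshold was 0 in each comparison under every alternative run, with lowest adjusted limma p-values from 0.159 upwards. For NrasG12D/+ against Nras+/+ the members' median change relative to all genes (0.54) was 0.11 with normexp, 0.14 over the 16 members above background on all 8 arrays, 0.35 with every probe tested by itself, and 0.73 both within slide 1 and with a fixed slide block. With 1 array left out it ranged from 0.15 to 0.73. For NrasG12D/G12D against Nras+/+ (0.16) it was -0.06 over the members above background on all arrays and 0.74 with a fixed slide block, and ranged from 0.02 to 0.34 with 1 array left out. For NrasG12D/G12D against NrasG12D/+ (-0.18) it was 0.07 over the members above background on all arrays, and ranged from -0.31 to -0.09. The cause of these shifts was not tested. Same-numbered arrays showed no shared deviation (correlations from -0.09 to 0.08 over 7 pairs). Whether the numbers pair the samples cannot be decided from this, because the groups hold few arrays and the labels do not say. The pairs are also not independent, as the Nras+/+ arrays mirrored each other (0.08 and -0.08 with NrasG12D/+ replicate 1). The medians with the replicate block were 0.61, 0.24 and -0.18, with 0 members past the threshold. Of 1508 recomputed changes of named genes, 1421 kept their sign and 87 changed it, none of them past the threshold. Part of these could not change sign, so the count overstates how stable the signs were. Leaving out an array of the genotype not compared, or fitting only the groups compared, leaves a difference of group means as it was. The deposited value table nearly repeats the scaling to the median. Where an alternative left 1 control array, that array was assumed to vary like the other groups. Signal near background limits the dimmer members most.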

Other observations

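Ndufa7, an accessory subunit of complex I that was detected on all 8 arrays, measured 3.10 and -1.98 in Nras+/+, 1.08, 0.66 and 3.30 in NrasG12D/+ and 2.28, 3.88 and 3.77 in NrasG12D/G12D. The lowest of all 8 arrays was Nras+/+ replicate 2, while Nras+/+ replicate 1 lay within the mutant range, with a log2 difference of 2.75 between NrasG12D/G12D and Nras+/+ (SE 1.47, limma adjusted p = 0.722). The other Ndufa7 probe, detected on 1 array of each genotype, gave -0.08 for that comparison. For NrasG12D/+ against Nras+/+ it gave -1.17, where the tested probe gave 1.12. Uqcrb, a subunit of complex III, measured 0.44 and 0.76 in Nras+/+, -1.07, -0.47 and 0.55 in NrasG12D/+ and -0.50, -0.38 and -0.25 in NrasG12D/G12D, where all arrays lay below both controls.

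The extremes of the members fell unevenly over the arrays. NrasG12D/+ replicate 2 was the highest array for 13 of the 56 members (23.2%) and for 10.6% of all genes, whereas Nras+/+ replicate 1 was highest for 2 members (3.57%) and 11.3% of all genes. NrasG12D/G12D replicate 1 was the lowest array for 18 members, and for 24.6% of all genes. For Cox7a2, whose probes share 48 bases, both probes were detected on 1 array and differed by a median of 0.18 on the log2 scale, while the Atp5h probes, sharing 20 bases, were detected on 1 and 7 arrays and differed by a median of 2.0.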
